A study of Danio rerio with 36 samples.

Results

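The 10 complement genes described here are the rows of the deposited gene table with the symbols c3a.1, c5, c6, c8a, c8b, c8g, c9, cfb, cfd and cfhl1. All 10 of 10 were present among the 30490 genes of the table. They were followed in whole zebrafish embryos and larvae of 2 genotypes, wild type and kctd15 mutant, at 6 stages: embryos at 1 somite, 25 hours post fertilisation (hpf) and 2 days, and larvae at 5, 9 and 14 days. Each of the 12 groups of genotype and stage held 3 biological replicates, which makes 36 libraries of polyA RNA. The labels name no strain, allele, treatment or sex, do not say which of the paralogs kctd15a and kctd15b is altered, and do not give the number of animals in a library. The series asks what kctd15, which encodes a BTB-domain protein, does to gene expression as the animal develops.

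Complement is a set of plasma proteins, made in large part by hepatocytes, that marks and lyses microbes. Its central protein, C3, is cleaved by convertase enzymes. In the alternative pathway the convertase is built from factor B (cfb) after the protease factor D (cfd) has cut it, and factor H and its relatives hold that convertase in check on host surfaces. C5 is cleaved next, and C6, C7, C8 and C9 then join into the membrane attack complex, a pore in the target membrane. C8 has an alpha, a beta and a gamma chain, encoded by c8a, c8b and c8g. Zebrafish carry several C3 genes and a row of factor H-like genes, of which cfhl1 is one. The row called c6 is listed as c6.2 in the current RefSeq annotation.

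Library totals ran from 5512118 to 12523019 estimated counts, and levels are given in CPM, which is counts scaled to a common library total. Groups were compared with edgeR's quasi-likelihood test on the rounded counts with TMM scaling, with Benjamini-Hochberg adjustment over all genes tested and a threshold of 0.05. Fold changes are mutant over wild type on the log2 scale, with standard errors, and each group had n = 3. Each standard error is the size of the log2 change divided by the square root of the test's F statistic. It is not the spread of the libraries. RNA of kctd15a was higher in mutants at all 6 stages and that of kctd15b at 5 of 6, which does not check the genotype labels, since a mutation need not lower RNA. These are whole animals, so fewer cells of a type and less RNA per cell cannot be told apart in any result below. The labels call the replicates biological but do not say whether they came from separate clutches, so the p-values measure the spread between these libraries.

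In wild type, RNA of all 10 complement genes rose between 1 somite and 25 hpf (edgeR adjusted p at most 1.56e-05 in the fit of all 36 libraries; over all genes 37.9% rose in this step). The rise in wild type was smallest for cfb, 1.52 ± 0.28, and c3a.1 rose by 3.83 ± 0.28. The terminal gene c9 had 3 counts in total at 1 somite and 2378 at 25 hpf, and cfd had 5 and 386. Their fitted changes, 9.13 ± 0.48 for c9 and 5.86 ± 0.40 for cfd, rest on these few early counts. From 25 hpf to 2 day, 7 of 10 rose in wild type (25.5% of all genes rose), by 0.60 (c8a) to 1.72 (cfb). Of the rest, c5 and cfd did not pass (0.03 and -0.21, edgeR adjusted p = 0.94 and 0.39). Only c6 (27.7% of all genes fell) fell, by 0.47 ± 0.19 (edgeR adjusted p = 0.0349). That fall of c6 was lost without 2 day wild type replicate 1 or 25 hpf wild type replicate 3 (adjusted p = 0.244 and 0.254) and with RLE or library-size scaling (0.141 and 0.0895), and the c3a.1 rise of 0.75 was lost without 2 day wild type replicate 3 or 25 hpf wild type replicate 1 (adjusted p = 0.0609 and 0.0579).

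From 2 to 5 day, 6 of 10 rose in wild type (31.2% of all genes rose). These were cfd (2.81 ± 0.18), cfb (1.26 ± 0.22), c6 (0.99 ± 0.19), c9 (0.83 ± 0.21), c3a.1 (0.80 ± 0.23) and c5 (0.52 ± 0.23). The c5 call (edgeR adjusted p = 0.0448) was lost without any 1 of 10 libraries: 2 day wild type replicates 1, 2 and 3 and mutant replicate 3, 5 day wild type replicates 2 and 3, 25 hpf wild type replicate 3 and mutant replicates 2 and 3, and 1 somite mutant replicate 2 (adjusted p 0.0504 to 0.128). From 5 to 9 day, 3 fell in wild type (25.1% of all genes fell), namely c3a.1 (-1.33 ± 0.23), cfb (-1.09 ± 0.21) and c9 (-0.84 ± 0.21). From 9 to 14 day, c6 rose by 1.26 ± 0.17 and cfd by 1.62 ± 0.16, while 10.3% of all genes rose. The highest wild-type group mean in CPM was at 5 day for 7 genes, c3a.1, c5, c8a, c8b, c9, cfb and cfhl1, and at 14 day for c6, c8g and cfd. Of those 7, c3a.1, c9 and cfb passed both the test of the step from 2 to 5 day and that of the step from 5 to 9 day. For c8g none of the steps from 2 to 14 day passed (-0.04, 0.08 and 0.27).

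**Figure D1:**
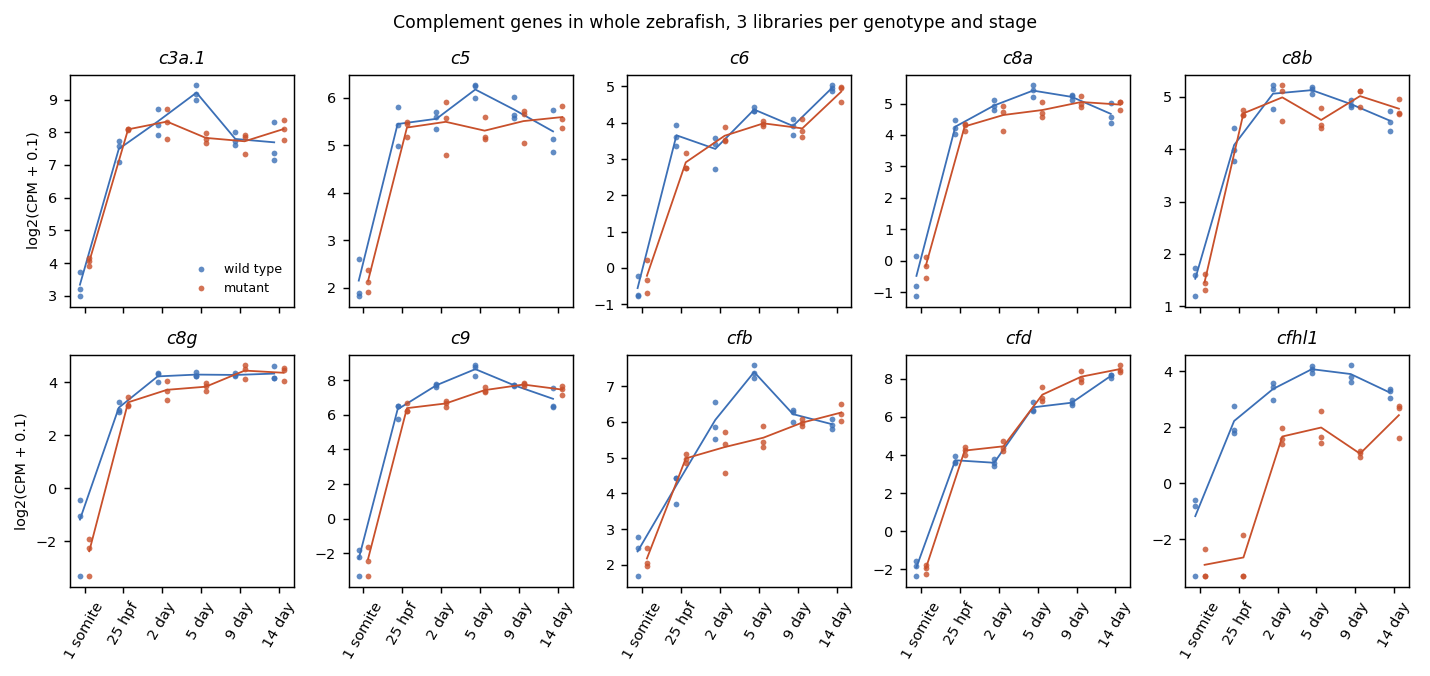
Level of each complement gene by stage as log2(CPM + 0.1), with 1 point per library (3 per genotype and stage) and lines through log2 of the group mean CPM + 0.1. All 10 genes start low at 1 somite, and the wild-type lines of c3a.1, c9 and cfb have a peak at 5 day that the mutant lines lack.

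At 5 day 6 of the 10 genes were called, as at 25 hpf. Of the 10 genes at 5 day, 5 were lower in mutants (c3a.1, c5, c9, cfb and cfhl1) and 1, cfd, was higher. Over all 21510 genes tested at 5 day, 7.84% were lower and 6.17% higher, 14% in all. The remaining 4, c6, c8a, c8b and c8g, did not pass. In CPM the groups did not overlap for any of the 10 genes, with mutants lower for 9 and higher for cfd. Over all genes tested at 5 day, mutant CPM lay wholly below wild type for 30.7% and wholly above for 6.74%. The median log2 fold change of the 10 was -0.56, against 0.01 over all genes tested. With scaling by library total alone, as in CPM, the median over all genes at 5 day was -0.17, so CPM values of mutants carry that shift, and under neither this nor RLE scaling did the direction of a tested member turn at any stage.

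**Figure D2:**
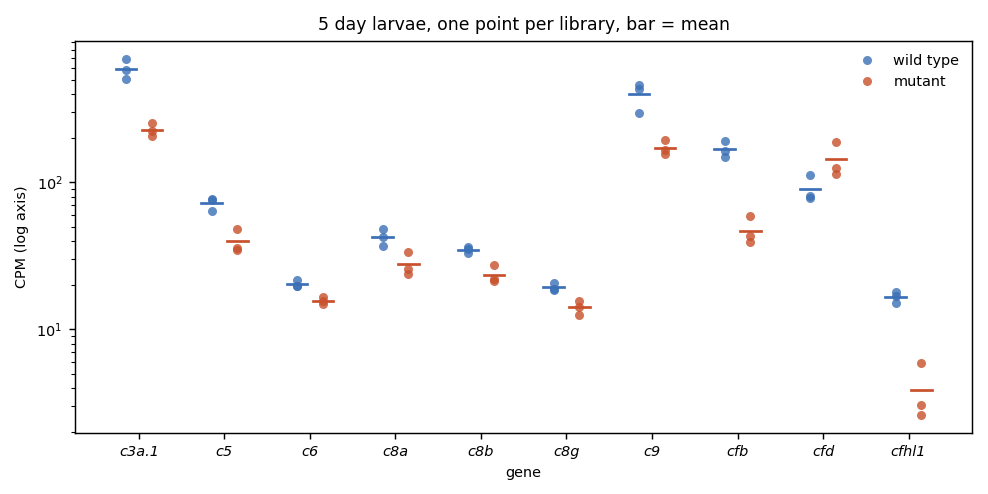
Level of each complement gene at 5 day in CPM on a log axis, with 1 point per library and a bar at the mean of the 3 libraries of a genotype. Mutant libraries lie below every wild-type library for 9 genes and above them for cfd.

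C3 and C5 carry the central step. At 5 day, c3a.1, a gene for C3, stood at 505, 578 and 695 CPM in wild type and 205, 223 and 253 CPM in mutants. Every wild-type library was at least about 2-fold above every mutant library. The log2 fold change -1.21 ± 0.13 corresponds to a 2.32-fold lower level (edgeR adjusted p = 0.000214), and the call held with any 1 library left out. The gene for C5 stood at 63.9, 75.9 and 77.1 CPM in wild type and 35.8, 34.9 and 48.0 in mutants. All 3 mutant libraries were below all 3 wild-type libraries (log2 fold change -0.69 ± 0.14, edgeR adjusted p = 0.00805), and the c5 call was lost without mutant replicate 2 (adjusted p = 0.0565).

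At the early stages c3a.1 went the other way. At 25 hpf it stood at 137, 212 and 189 CPM in wild type and 275, 272 and 269 CPM in mutants. The mutant libraries were nearly equal and all above wild type (log2 fold change 0.66 ± 0.11, edgeR adjusted p = 0.000588), a call that was lost in the fit of all 36 libraries (adjusted p = 0.1). At 1 somite c3a.1 stood at 9.07, 13.1 and 7.83 CPM in wild type and 17.5, 15.0 and 16.6 in mutants, without overlap (log2 fold change 0.65 ± 0.18, edgeR adjusted p = 0.0324). It was the 1 call among the 4 members tested there (c3a.1, c5, c8b and cfb; 13.6% of all genes were called, 6.77% higher and 6.79% lower), and it was lost without wild type replicate 1 or 3 or mutant replicate 1 or 3 (adjusted p = 0.117, 0.112, 0.0907 and 0.0907) and in the fit of all 36 libraries (0.151). At 2, 9 and 14 day the groups of c3a.1 overlapped, with log2 fold changes of 0.03, -0.03 and 0.44 and edgeR adjusted p of 0.943, 0.957 and 0.355. At 14 day wild type replicate 1, at 315 CPM, stood above the other wild-type libraries at 142 and 163 CPM, and without it c3a.1 passed as higher in mutants (0.86, adjusted p = 0.0246). For c5 no stage other than 5 day passed, with log2 fold changes from -0.19 at 9 day to 0.34 at 14 day.

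The gene values of factor B and factor D, which act together in the alternative pathway, moved in opposite directions in mutants at 5 day. For cfb this holds for the gene as a whole only. The RefSeq transcript matched to cfb stood higher in mutants at 5 day, and the fall lay in the remainder, as given below. That division was not tested. For cfb the 5 day libraries stood at 148, 164 and 191 CPM in wild type and 39.2, 43.0 and 58.7 CPM in mutants. The lowest wild-type library was more than 2-fold above the highest mutant library (log2 fold change -1.66 ± 0.16, a 3.15-fold lower level, edgeR adjusted p = 9.47e-05), and no single library was needed for it. At 25 hpf cfb stood at 12.9, 21.5 and 21.6 CPM in wild type and 31.3, 28.8 and 34.1 in mutants. There the mutants were higher without overlap (log2 fold change 0.79 ± 0.15, edgeR adjusted p = 0.00171), but the call was lost in the fit of all 36 libraries (adjusted p = 0.0528). At 2 day cfb ranged from 46.1 to 94.7 CPM in wild type and from 23.7 to 52.5 CPM in mutants. These groups overlapped and did not pass when the stage was fitted alone (log2 fold change -0.73 ± 0.28, edgeR adjusted p = 0.128), but passed in the fit of all 36 libraries (-0.80, adjusted p = 0.019). At 1 somite, 9 day and 14 day cfb did not pass (-0.27, -0.18 and 0.36).

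For cfd, the protease that activates factor B, mutants were higher at 4 stages. At 25 hpf it stood at 12.1, 15.1 and 12.1 CPM in wild type and 19.1, 15.9 and 21.0 CPM in mutants (log2 fold change 0.56 ± 0.14, edgeR adjusted p = 0.0116). At 2 day it stood at 10.5, 11.7 and 13.7 and 26.7, 20.7 and 18.2 CPM (log2 fold change 0.89 ± 0.18, edgeR adjusted p = 0.0131). At 5 day it stood at 112, 80.7 and 78.5 and 115, 125 and 189 CPM (log2 fold change 0.84 ± 0.19, edgeR adjusted p = 0.0145). In each of these stages the lowest mutant library was above the highest wild-type library. At 25 hpf and 5 day it was so only just, with 15.9 against 15.1 and 115 against 112 CPM. The difference was largest at 9 day, with 107, 97.7 and 116 CPM in wild type and 339.6, 229.8 and 255 CPM in mutants. All 3 mutant libraries were there about 2-fold or more above the highest wild-type library (log2 fold change 1.41 ± 0.14, a 2.65-fold higher level, edgeR adjusted p = 0.00136), and no single library was needed for this call. The 25 hpf call was lost without mutant replicate 3 (adjusted p = 0.0561) and in the fit of all 36 libraries (0.093), and the calls at 2 and 5 day also hung on single libraries: cfd lost the first without wild type replicate 1 or 2 (0.0618 and 0.0514) and the second without wild type replicate 2 (0.0519). At 14 day the groups still did not overlap, with 262, 295 and 289.7 CPM in wild type and 329, 415 and 345 in mutants, but cfd did not pass (log2 fold change 0.39 ± 0.14, edgeR adjusted p = 0.126). At 1 somite cfd had 5 counts in each genotype and was not tested.

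cfhl1, one of the factor H-like genes, was lower in mutants at 4 stages. At 25 hpf it had 137 counts in the 3 wild-type libraries, 27, 72 and 38, and 1 count in the 3 mutant libraries, 0, 0 and 1. Relative to library totals this was 86.0-fold lower in mutants (95% interval 15.2 to 3423, from counting error only), and no left-out library removed the call (edgeR adjusted p = 1.52e-05). At 2 day cfhl1 stood at 7.78, 11.9 and 10.8 CPM in wild type and 3.83, 2.53 and 2.86 in mutants (log2 fold change -1.70 ± 0.25, edgeR adjusted p = 0.00288). At 5 day it stood at 15.2, 16.9 and 17.9 and 3.07, 2.62 and 5.89 CPM (log2 fold change -1.88 ± 0.25, edgeR adjusted p = 0.000792). At 9 day it stood at 18.3, 13.7 and 12.2 and 2.09, 2.03 and 1.81 CPM (log2 fold change -2.84 ± 0.24, a 7.18-fold lower level, edgeR adjusted p = 0.000625). At each of these stages every mutant library was below every wild-type library, and leaving out any single library removed none of these calls. At 14 day the groups again did not overlap, 10.1, 8.09 and 9.77 CPM against 6.62, 2.93 and 6.27, but cfhl1 did not pass (log2 fold change -0.82 ± 0.27, edgeR adjusted p = 0.107). At 1 somite cfhl1 had 11 counts in wild type and 1 in mutants, an 11.4-fold lower level relative to library totals with a 95% counting interval of 1.66 to 493, and it was not tested.

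In the RefSeq gene order of assembly GRCz12tu, used only for names and neighbours, cfhl1 lies between cfh and cfhl2, with cfhl4 and cfhl3 on the outer sides. The gene for factor H itself, cfh, was higher in mutants at 25 hpf, at 28.0, 42.8 and 36.4 CPM in wild type and 67.9, 84.9 and 82.1 CPM in mutants (log2 fold change 1.19 ± 0.12, edgeR adjusted p = 3.5e-06), the stage at which cfhl1 was nearly absent from mutants. With each stage fitted alone in edgeR with TMM scaling, cfh was not called at another stage. Its log2 fold changes there were 0.72 at 1 somite, 0.85 at 2 day, -0.36 at 5 day, 0.46 at 9 day and 0.65 at 14 day. It passed as higher at 2 day in the fit of all 36 libraries and with no filter on low counts (adjusted p = 0.0309 and 0.0321), as higher at 14 day with DESeq2 (0.0352), and as lower at 5 day with library-size scaling (0.0276). At 5 day cfhl4 fell by 0.80 ± 0.14, and cfhl2 and cfhl3, named here for their place beside cfhl1 and after their values were seen, fell by 0.59 ± 0.17 and 2.61 ± 0.55 (edgeR adjusted p = 0.00344, 0.0372 and 0.0109). cfhl3 rested on 65 wild-type and 11 mutant counts and was lost without mutant replicate 2 (adjusted p = 0.0617). The cfhl2 call was lost without wild type replicate 1 or 2 or mutant replicate 1 or 2 (0.0847 to 0.152), with DESeq2 (0.0508) and in the fit of all 36 libraries (0.0777), while that of cfhl4 held. With each stage fitted alone in edgeR, cfhl2, cfhl3 and cfhl4 were not called at another stage, but in the fit of all 36 libraries cfhl4 passed as lower at 1 somite (adjusted p = 0.0463) and cfhl2 as higher at 14 day (0.0395), and with no filter on low counts cfhl4 passed at 1 somite and as higher at 25 hpf (0.0476 and 0.0333). Related genes can share reads, and the sequences of these genes were not compared here. How the authors' quantification divided reads between them is therefore uncertain.

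**Figure D3:**
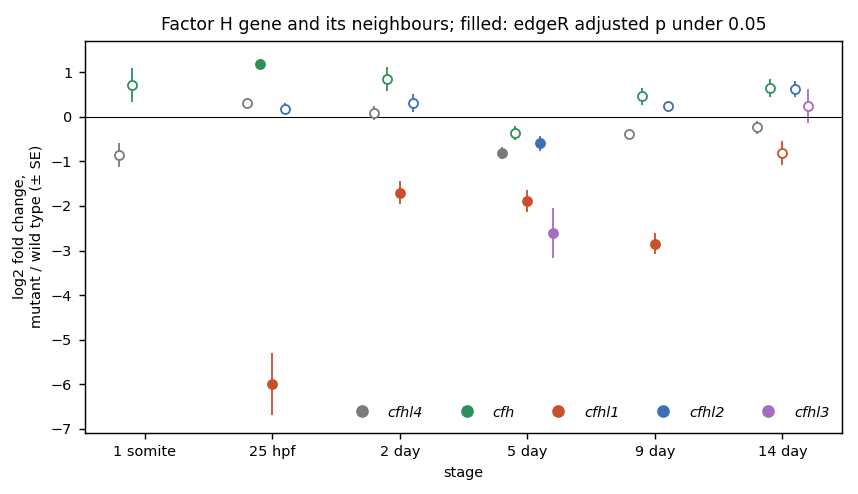
Log2 fold change of mutant over wild type (with standard error) by stage for cfhl1 and the 4 neighbouring factor H genes, filled where the edgeR adjusted p is under 0.05, with genes left out at stages where they were too low to test. cfhl1 is below 0 from 25 hpf to 14 day, with the 25 hpf point resting on 1 mutant count, while cfh is above 0 at 25 hpf.

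Among the 5 members that encode parts of the membrane attack complex (c6, c8a, c8b, c8g and c9), c9, whose product forms most of the pore, was called at 2 stages when each stage was fitted alone. At 2 day it stood at 196, 213 and 216 CPM in wild type and 111, 86.6 and 103 CPM in mutants (log2 fold change -1.04 ± 0.13, edgeR adjusted p = 0.000929). At 5 day it stood at 296, 431 and 461 CPM and 165, 156 and 193 CPM (log2 fold change -1.04 ± 0.16, edgeR adjusted p = 0.00167). The mutant libraries lay below every wild-type library at both stages, and neither call was lost by leaving out a library. At 9 day the levels overlapped at 198, 213 and 211 and 228, 199 and 215 CPM (log2 fold change 0.09 ± 0.09, edgeR adjusted p = 0.66). At 14 day c9 was not called (log2 fold change 0.57 ± 0.26, edgeR adjusted p = 0.227), and without wild type replicate 1, at 184 CPM against 88.3 and 89.7 in the others, it passed as higher in mutants (0.99, adjusted p = 0.0113).

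Of the other 4 members of the complex, c8b and c6 passed at 25 hpf. At 25 hpf c8b stood at 13.6, 21.1 and 15.7 CPM in wild type and 25.0, 25.2 and 26.6 CPM in mutants, without overlap (log2 fold change 0.66 ± 0.14, edgeR adjusted p = 0.00316), and kept its call without any 1 of the 6 libraries. At the same stage c6 was lower, at 10.2, 12.1 and 15.0 CPM in wild type and 6.64, 6.66 and 8.89 CPM in mutants (log2 fold change -0.71 ± 0.19, edgeR adjusted p = 0.016), a call lost without wild type replicate 3 or mutant replicate 1 or 2 (adjusted p = 0.0816, 0.0628 and 0.0747). The other chain genes did not pass at 25 hpf, with log2 fold change 0.07 ± 0.13 for c8a and log2 fold change 0.26 ± 0.17 for c8g, although c8a and c8b lie next to each other in the RefSeq gene order. At 5 day the 4 genes had log2 fold changes of -0.44 ± 0.15 (c8a), -0.39 ± 0.13 (c8b), -0.28 ± 0.14 (c8g) and -0.20 ± 0.12 (c6), with edgeR adjusted p of 0.0755, 0.0658, 0.198 and 0.296. With library-size scaling in place of TMM, c8a, c8b and c8g passed as lower at 5 day (adjusted p = 0.0157, 0.0113 and 0.0381), and without mutant replicate 3 c8a and c8b did (0.0314 and 0.0312). At 2 day none of the 4 passed, with log2 fold changes of 0.38 ± 0.22 (c6), -0.29 ± 0.19 (c8a), -0.06 ± 0.19 (c8b) and -0.50 ± 0.21 (c8g). Their edgeR adjusted p were 0.305, 0.362, 0.879 and 0.156. At 9 and 14 day none of the 4 passed, with log2 fold changes between -0.11 and 0.33. At 1 somite c6, c8a, c8g and c9 were not tested: c6 had 17 wild-type and 24 mutant counts, c8a 19 and 24, c8g 11 and 3, and c9 3 and 3. For c8g this was a 3.82-fold lower level in mutants, with a 95% counting interval of 1.01 to 21.3.

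**Figure D4:**
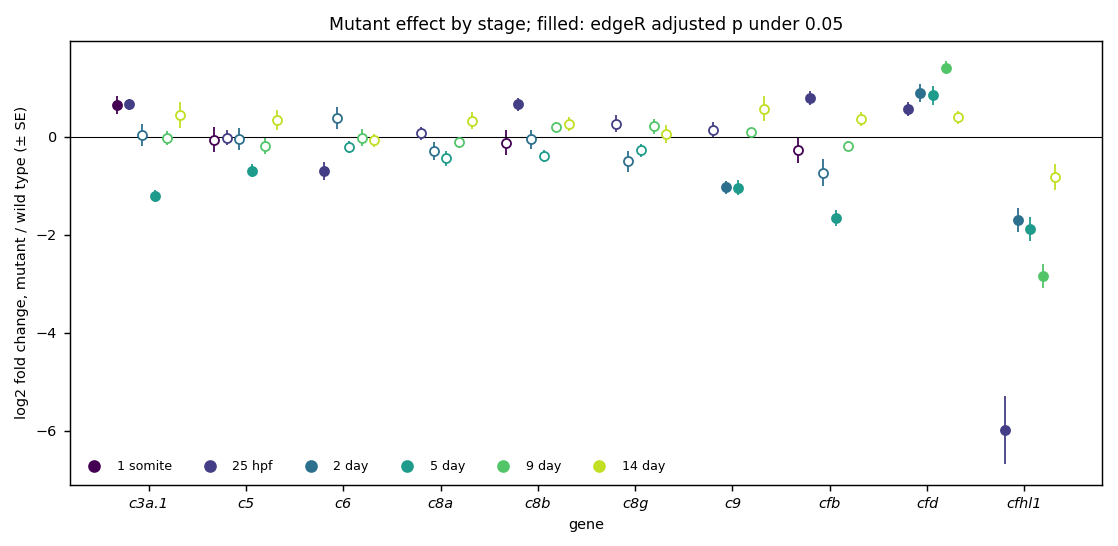
Log2 fold change of mutant over wild type with standard error for each complement gene, 1 point per stage in which the gene was tested, filled where the edgeR adjusted p is under 0.05. The 5 day points lie below 0 for every gene but cfd, the cfd points are above 0 from 25 hpf on, and the lowest point, cfhl1 at 25 hpf, rests on 1 mutant count.

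Counted by stage, 6 of 10 genes were called at 25 hpf, 4 higher and 2 lower (13.6% of all genes were called, 6.82% higher and 6.75% lower), and 3 of 10 at 2 day, 1 higher and 2 lower (6.86%, as 4.7% and 2.17%). At 9 day 2 of 10 were called, cfd higher and cfhl1 lower (1.91%, as 0.786% and 1.12%), and at 14 day 0 of 10 (4.8%, as 2.31% higher and 2.5% lower). At 14 day 3 of the 10, cfb, cfd and cfhl1, had an unadjusted p under 0.05 in edgeR, and DESeq2 called 0. Averaged over the 6 stages, 3 of 10 differed between genotypes, 1 higher and 2 lower (20.5% of all genes, as 9.58% and 10.9%), and the difference changed with stage for 6 of 10 (25.5% of all genes). Between consecutive stages the genotype difference changed for 0, 5, 1, 3 and 2 of 10 members, from the first step to the last, and for 6.31, 5.86, 9.23, 2.65 and 1.11% of all genes. The averaged effects were 0.65 ± 0.20 for cfd, -0.29 ± 0.10 for cfb and -2.74 ± 0.27 for cfhl1 (edgeR adjusted p = 0.0176, 0.0342 and 4.3e-09). The cfhl1 average includes 1 somite and 25 hpf, with 1 mutant count in each. At 2, 5, 9 and 14 day, each fitted alone, the cfhl1 log2 fold changes were -1.70, -1.88, -2.84 and -0.82. The cfd value was lost without 1 somite mutant replicate 2 or 3 (adjusted p = 0.0724 and 0.0645). The cfb value was lost without any 1 of 12 libraries: 1 somite wild type replicates 2 and 3 and mutant replicates 1 and 2, 25 hpf wild type replicates 2 and 3 and mutant replicate 2, 2 day wild type replicate 3 and mutant replicate 2, 5 day wild type replicate 3 and mutant replicate 1, and 14 day mutant replicate 1 (adjusted p 0.0505 to 0.0856).

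Other genes of the complement system were also lower in mutants at 5 day. Of 47 listed, 37 were matched to a row and 30 were tested at 5 day, of which 0 were higher and 10 lower in mutants (6.17 and 7.84% of all genes), with a median log2 fold change of -0.22 and 7 to 13 calls with 1 library left out. Among the lowest were the row si:dkey-8k3.2, listed by RefSeq under the synonym c4b for a C4 gene, at 101, 83.1 and 101 CPM in wild type and 11.2, 10.9 and 12.1 CPM in mutants (log2 fold change -2.88 ± 0.13). The second C3 gene c3a.2 stood at 289.6, 318 and 358 and 112, 79.7 and 94.4 CPM (log2 fold change -1.59 ± 0.13). The row zgc:158446, with the synonym cfbl for a factor B-like gene, stood at 30.8, 20.5 and 15.6 and 2.50, 2.36 and 3.51 CPM (log2 fold change -2.78 ± 0.27). Mutants lay far below wild type in every library for these rows, and their edgeR adjusted p ran from 6.8e-07 to 0.000117. cfi, the gene for the protease that inactivates C3b, fell by 0.43 ± 0.11, c3a.6 by 0.71 ± 0.14 and rca2.1, a regulator gene, by 0.38 ± 0.11 (edgeR adjusted p = 0.0216, 0.00806 and 0.047). The cfi call was lost without mutant replicate 1 or 2 (0.0785 and 0.0896) and that of rca2.1 without any 1 library but wild type replicate 3 (0.0657 to 0.183), and both were lost in the fit of all 36 libraries (0.0851 and 0.0732).

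At 25 hpf 28 of these other genes were tested, 9 higher and 1 lower in mutants (6.82 and 6.75% of all genes), with a median of 0.30, and in the fit of all 36 libraries 4 were called, all higher. masp2, the protease of the lectin pathway, stood at 3.78, 4.09 and 3.84 CPM in wild type and 12.2, 17.6 and 14.0 in mutants (log2 fold change 1.97 ± 0.18). c3a.6 and vtna, for vitronectin, rose by 0.69 ± 0.12 and 1.06 ± 0.17, and the C3 gene c3b.2 fell by 0.95 ± 0.20 (edgeR adjusted p = 0.000724, 0.000411 and 0.00311). In the fit of all 36 libraries c3a.6 and c3b.2 did not pass (adjusted p = 0.163 and 0.0503). At 2 day 2 were higher, c3b.1 (0.78 ± 0.16) and serping1, the C1 inhibitor gene (0.77 ± 0.21), and 2 lower, si:dkey-8k3.2 (-1.09 ± 0.19) and c1qbp (-0.47 ± 0.12), of 27 tested (4.7 and 2.17% of all genes), with 1 call left without wild type replicate 1 or 2 and 2 without mutant replicate 3. Of these, serping1 was lost without any 1 library (edgeR adjusted p 0.0631 to 0.16), c1qbp without any but wild type replicate 3 (0.0615 to 0.139), and c3b.1 without wild type replicate 1 or 2 (0.0731 and 0.0735). At 1 somite 1 of 15 was higher, c7b at log2 fold change 1.27 ± 0.20, and 3 were lower, masp1, cfi and c1qbp (-1.02 ± 0.24, -0.56 ± 0.10 and -0.51 ± 0.11; 6.77 and 6.79% of all genes), with 2 calls left without wild type replicate 1. There masp1 was lost without wild type replicate 1 or mutant replicate 3 (edgeR adjusted p = 0.0682 and 0.0675), c1qbp without wild type replicate 1 (0.0512), and c7b in the fit of all 36 libraries (0.0579). At 9 day edgeR called 0 of 33, with 6 at an unadjusted p under 0.05 and 0 called by DESeq2. At 14 day 2 of 35 were higher, c3a.2 (1.39 ± 0.17) and masp2 (0.94 ± 0.15), and 2 lower, hbl3, a lectin gene (-1.22 ± 0.23), and rca2.1 (-0.59 ± 0.14; 2.31 and 2.5% of all genes), with 2 calls left without mutant replicate 3. There hbl3 was lost without mutant replicate 1 or 3 (edgeR adjusted p = 0.059 and 0.06) and rca2.1 without any 1 library but wild type replicate 2 (0.0675 to 0.129).

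Markers of hepatocytes and of myeloid cells were read in the same libraries. At 5 day the 28 hepatocyte genes had a median log2 fold change of -0.01, with 4 higher and 3 lower in mutants. Over all genes tested at 5 day, 6.17% were higher and 7.84% lower. Their summed level was 14606 to 17196 CPM in wild type and 14930 to 17863 CPM in mutants. Of the defining genes, fabp10a was not called (0.35 ± 0.12, edgeR adjusted p = 0.0798) and tfa, for transferrin, was higher (0.40 ± 0.12, 0.044), a call lost without wild type replicate 1 or 2 or mutant replicate 2 or 3 (0.0985 to 0.142), with library-size scaling (0.188) and in the fit of all 36 libraries (0.125). The 3 that were lower, named after their values were seen, were cp, for ceruloplasmin, ahsg1 and itih2 (-0.57, -0.54 and -0.40). Of the 4 that were higher, only tfa is named here. Macrophage genes were lower too at 5 day: of 13 tested of 16 listed, 0 were higher and 10 lower, the median was -1.15, and the summed level was 223 to 341 CPM in wild type and 101 to 118 CPM in mutants. mpeg1.1, a macrophage perforin, and mfap4 fell by 1.50 ± 0.21 and 1.96 ± 0.28 (edgeR adjusted p = 0.0012 and 0.00137), and neither was at 0 in any 5 day library. Of the 16 macrophage genes, 3 (c1qa, c1qb and c1qc) also stand in the list of other complement genes.

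Of 10 neutrophil genes, 0 were higher and 7 lower at 5 day (6.17 and 7.84% of all genes), with a median of -1.19 and a summed level of 2597 to 3318 CPM in wild type and 2423 to 2874 CPM in mutants. mpx, for myeloperoxidase, fell by 1.34 ± 0.15 (edgeR adjusted p = 0.000254) and lyz, for lysozyme, did not pass (-0.73 ± 0.23, 0.0592), although it passed as lower with DESeq2 (0.0109). Of 16 acute phase and inflammation genes tested, 2 were higher and 7 lower (6.17 and 7.84% of all genes), with a median of -0.47. hamp, for hepcidin, had 616 counts in wild type and 8 in mutants, all 8 in 1 mutant library, and il1b fell by 1.32 ± 0.30 (edgeR adjusted p = 0.000107 and 0.0145), while socs3a did not pass (0.51 ± 0.19, 0.0947). The il1b call was lost without wild type replicate 1 or mutant replicate 1 or 2 (edgeR adjusted p = 0.0578, 0.0555 and 0.0647). The part of the myeloid and acute phase genes in the complement result at 5 day was not tested. Intestine genes (14 tested, 1 higher and 3 lower) and exocrine pancreas genes (14 tested, 2 higher and 0 lower) had medians of -0.20 and 0.16, and notochord and skin genes (10 tested, 4 higher and 0 lower) a median of 0.16. The notochord and skin genes, kept as 1 list, summed to 7523 to 8546 CPM in wild type and 14101 to 18132 CPM in mutants at 5 day. Their sums were also apart at 2 day, at 13298 to 13702 CPM in wild type and 20680 to 26098 CPM in mutants. Such a sum weighs abundant genes most. At 5 day the intestine genes summed to 6440 to 7491 and 5419 to 5761 CPM, and the sums of the exocrine pancreas genes overlapped.

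At 25 hpf, where 4 complement genes were higher, 11 of the 22 hepatocyte genes tested were higher and 1 lower (6.82 and 6.75% of all genes), with a median of 0.37. Their summed level was 7492 to 10202 CPM in wild type and 11179 to 11805 CPM in mutants. The same list already summed to 3930 to 4605 CPM in wild type and 3652 to 4340 CPM in mutants at 1 somite. Its sum is therefore not a measure of hepatocytes at the early stages. fabp10a was near 0 there, with at most 0.881 CPM in any library, and tfa did not pass (0.27 ± 0.13, edgeR adjusted p = 0.219). Macrophage genes at 25 hpf had 0 of 9 called (13.6% of all genes), with 0 at an unadjusted p under 0.05 in edgeR and 0 called by DESeq2. Neutrophil genes had 3 of 8 higher (6.82% of all genes), mpx among them (0.81 ± 0.15, edgeR adjusted p = 0.00161). The part of the hepatocyte and neutrophil genes in the complement result at 25 hpf was not tested. At 2 day tfa and hamp fell by 1.01 ± 0.20 and 2.14 ± 0.21 and socs3a rose by 1.72 ± 0.37 (edgeR adjusted p = 0.0124, 0.000222 and 0.0183). Of 24 hepatocyte genes there, 2 were lower (2.17% of all genes). The hepatocyte list summed to 12180 to 14954 CPM in wild type and 10957 to 15476 CPM in mutants at 2 day. The tfa call was lost without mutant replicate 3 (edgeR adjusted p = 0.0703), and that of socs3a without wild type replicate 1 or mutant replicate 2 or 3 (0.0579, 0.0818 and 0.0514) and in the fit of all 36 libraries (0.124). At 9 day the hepatocyte list summed to 19720 to 20199 CPM in wild type and 17873 to 18288 CPM in mutants, without overlap. The part of this in the complement result at 9 day was not tested. At 14 day, where no complement member passed, 5 of 15 macrophage genes were lower (2.5% of all genes). mpeg1.1 was among them (-0.69 ± 0.13, edgeR adjusted p = 0.014), a call lost without wild type replicate 2 or mutant replicate 1 (0.0517 and 0.0652).

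The deposited transcript table divides some complement genes between transcripts. For 9 of the 10 genes the RefSeq accession in the reference table was found there, and for c9 it was not. For c3a.1, c5, c8b, c8g, cfd and cfhl1 the matched transcript held 99.2 to 100.8% of the gene's value in every library from 25 hpf on. Shares above 100% mean that gene values are not plain sums of their transcripts. For cfb it held 2.37 to 27.5% in the 15 wild-type libraries from 25 hpf to 14 day and 32.5 to 58.4% in the 15 mutant libraries, so the genotypes did not overlap. At 5 day the matched cfb transcript stood at 17.5, 15.2 and 13.9 CPM in wild type and 20.4, 21.5 and 30.7 CPM in mutants. The rest of the gene's value, which was not assigned to a transcript here, averaged 152 CPM in wild type and 22.8 CPM in mutants. In this estimated division of reads, which was not tested, the lower cfb level of mutants at 5 day lay in that remainder. At 9 day the matched transcript averaged 9.01 CPM in wild type and 35.3 CPM in mutants and the remainder 65.2 and 27.7 CPM, while the gene as a whole did not pass.

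For c8a the matched transcript held 63.9 to 75.7% of the gene in the 5 day mutants and 0 to 22.6% in the 5 day wild-type libraries. At 25 hpf it held 65.3 to 82.1% in mutants and 49.6 to 60.4% in wild type, and at 2 day 56.2 to 82.0% and 23.3 to 36.3%, while at 9 and 14 day the genotypes overlapped. For c6 the share ran from 0 to 79.2% in mutants and from 0 to 63.5% in wild type, and replicates of 1 group differed by nearly that whole range, so no share is read from c6. cfb lies beside the related genes bfb and cfbl in the RefSeq gene order, and reads shared between such transcripts are divided by an estimate, so these shares are uncertain and were not tested.

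**Figure D5:**
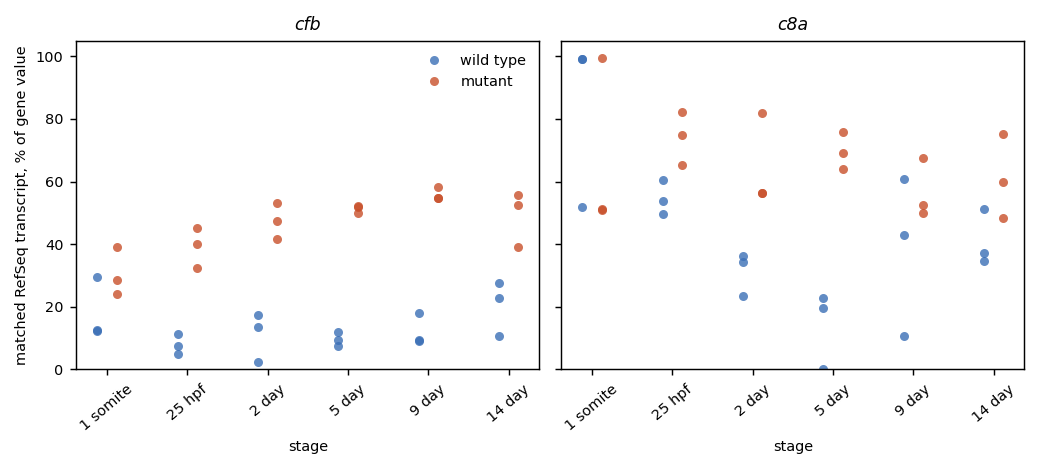
Share of the gene's estimated count that the matched RefSeq transcript held, in percent, for cfb and c8a, with 1 point per library. For cfb from 25 hpf on, mutants lie between 32.5 and 58.4% and wild type between 2.37 and 27.5%, and for c8a the genotypes are apart at 25 hpf, 2 day and 5 day.

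Across the 36 libraries the members followed each other closely, and all 10 share the rise from 1 somite; correlations without the 1 somite libraries were not computed. The pair most alike was c8a and c9, with Pearson's r of 0.991 on log2 CPM, and cfhl1 was least like the rest, with a median r of 0.729 to the other members. These correlations describe libraries that share stage and genotype and carry no test. After each group's mean was subtracted, the closest pair was c3a.1 and c5 (r = 0.883). The median r to the others was then lowest for c8g (0.198) and cfd (0.202), with c6 next (0.255). The 10 other genes most like the mean of the members over 36 libraries were f5, cp, shank3b, fgb, plekhg5a, fga, mllt11, cpb2, arl6ip1 and plg, with r from 0.990 to 0.984. Of these, f5, fga and fgb encode the clotting proteins factor V and the fibrinogen alpha and beta chains, plg encodes plasminogen, and cp encodes ceruloplasmin. Just as alike were shank3b, plekhg5a, mllt11 and arl6ip1 (r = 0.988, 0.986, 0.985 and 0.984), which stand in none of the marker lists used here. f5 and cpb2 stand in none of them either. A high r to this profile is therefore not particular to the listed marker genes. By itself it does not mark a gene as one for a plasma protein. After group means were subtracted, the 5 most alike were serpinc1, the gene for antithrombin (r = 0.887), aifm3, plg, zgc:112265 and itih2 (0.799).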

How the data were processed

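RNA of whole embryos and larvae was extracted with TRIzol and made into libraries with a stranded polyA kit, per the labels' protocols. The tools the authors used were Trimmomatic 0.36, kallisto 0.43.0 and edgeR (version not given in the sources used here), with build GRCz10, per the submitters' processing notes, which give no settings. In the deposited files, the gene and transcript tables hold estimated counts made by the authors, not normalized, for 30490 genes and 54435 transcripts, and 84.1% of the gene values are not whole. A further table that the authors deposited gives a signal, which is CPM scaled by a factor for each library. The members follow that factor, and it was used only as this check.

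From these, gene counts were rounded and fitted with edgeR 4.0.16 (filterByExpr with a minimum count of 10, TMM, glmQLFit, glmQLFTest) in R 4.3.3, at each stage alone (3 against 3) and, for the averaged effect, its change with stage and the steps between stages, over all 36 libraries. The script was tested on simulated data. Tested genes numbered 16844 at 1 somite, rising to 22335 at 14 day, and 24431 in the fit of all 36 libraries. Of the members, 4 passed the filter at 1 somite and 10 elsewhere. Alternatives were RLE factors, library size only, no filter, DESeq2 1.42.0, a replicate block, the other fit, and each library left out. Counting intervals are 95% exact intervals of a ratio of counts, used where a group held 1 to 3 counts. Replicate pairs differed by more than counting noise (chi-square per degree of freedom 2.47 to 14.4), so none was counted as a duplicate. A RefSeq gene table of assembly GRCz12tu gave synonyms, neighbours and accessions, and no sequences were used.

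The members and lists were chosen with earlier results of these data known. Named genes are all members, per stage and direction up to 4 called genes of the other complement list by smallest p, fixed marker genes, and the genes most alike by correlation; any other is said to be named after its values were seen.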

Additional observations from a re-analysis of the deposited data

Results flagged for a closer look

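For 6 of the 10 complement genes the difference between mutants and wild type was not the same at the 6 stages (test of the difference between stages, 5 degrees of freedom, edgeR in the fit of all 36 libraries). The adjusted p was 1.44e-05 for cfb, 0.000219 for c9, 0.000603 for c3a.1, 0.000659 for cfhl1, 0.00989 for cfd and 0.0103 for c8b. Each of these 6 held with any 1 library left out and under every other setting run, and 25.5% of all genes passed the same test.

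Between consecutive stages, the mutant difference changed for 5 of 10 genes from 25 hpf to 2 day (5.86% of all genes). It moved down for cfb (by -1.57 ± 0.33, edgeR adjusted p = 0.0038), c9 (-1.22 ± 0.31, 0.0148) and c8b (-0.77 ± 0.22, 0.0343), and up for c6 (1.04 ± 0.28, 0.0215) and cfhl1 (4.27 ± 1.03, 0.0114), whose 25 hpf value rests on 1 mutant count. The cfb change held with any 1 library left out. The c9 change was lost without 25 hpf wild type replicate 1 or mutant replicate 2 (adjusted p = 0.054 and 0.0743) and that of cfhl1 without 25 hpf mutant replicate 2 (0.0642). The c6 change was lost without replicate 1 of either genotype at 2 day, or wild type replicate 3 or mutant replicate 1 or 2 at 25 hpf (0.0565 to 0.0877). The c8b change was lost without wild type replicate 1 or mutant replicate 2 at 2 day, or any 25 hpf library but wild type replicate 2 (0.0552 to 0.112), and with library-size scaling (0.0734).

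From 2 to 5 day c3a.1 was the 1 call among the 10 (-1.17 ± 0.32, edgeR adjusted p = 0.0203; 9.23% of all genes), and this was lost without 2 day wild type replicate 1 or 2 or mutant replicate 1, or 5 day mutant replicate 1 (0.0512 to 0.0932). In the same step cfb passed with library-size scaling (-1.06, adjusted p = 0.0308) and without 2 day wild type replicate 3, 2 day mutant replicate 2 or 5 day mutant replicate 3 (0.0156 to 0.0403). From 5 to 9 day the difference moved up for cfb (1.48 ± 0.31, edgeR adjusted p = 0.00351), c9 (1.14 ± 0.30, 0.0267) and c3a.1 (1.20 ± 0.32, 0.0349), against 2.65% of all genes. The cfb change held with any 1 library left out. The c9 change was lost without 5 day wild type replicate 2 or 3 or mutant replicate 1 or 2, any 9 day wild-type library or 9 day mutant replicate 1 (0.053 to 0.0821), and that of c3a.1 without 5 day wild type replicate 2 or 3 or any 5 day mutant library, or 9 day wild type replicate 1 or 2 or mutant replicate 1 or 3 (0.0557 to 0.117).

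From 9 to 14 day the difference moved down for cfd (-1.02 ± 0.21, edgeR adjusted p = 0.00919) and up for cfhl1 (2.02 ± 0.44, 0.0121), against 1.11% of all genes. The cfhl1 change was lost without 14 day mutant replicate 3 (0.0551). From 1 somite to 25 hpf 0 of 10 changed in edgeR, with 4 at an unadjusted p under 0.05, and DESeq2 was not run on this step.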

How the results depend on the processing

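Of the 18 stage-by-stage calls of members, 12 kept their call with any 1 library left out, 14 under every other setting and 10 under both. No call of a member turned its direction under any setting run. The fit of all 36 libraries, which shares 1 estimate of spread, called 0 members at 1 somite in place of 1, 3 at 25 hpf in place of 6, and 4 other complement genes at 25 hpf in place of 10. With library-size scaling, 9 members were called at 5 day (1 higher, 8 lower), 2 in place of 1 changed from 2 to 5 day, and 4 in place of 2 differed between wild-type 9 and 14 day. Over all genes, the fit of all 36 libraries called 1473 at 25 hpf, 3016 at 2 day, 750 at 9 day and 2705 at 14 day in place of 2564, 1388, 422 and 1073, and DESeq2 called 640 at 9 day. The cause of these differences was not tested.

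Replicate numbers are shared between genotypes, but same-numbered libraries deviated together with correlations of only -0.25 to 0.08. Of 18 libraries, 2 correlated best with their own number. This gave no sign that the numbers pair the samples, and the main fits used no pairing. Deviations from means of 3 libraries cannot exclude pairing, and it was not tested. With a replicate block, 0 members were called at 1 somite in place of 1. At 25 hpf, 2, 5 and 9 day the block called 6, 3, 6 and 2 members, as without it. In the genotype difference of the step from 2 to 5 day it called 0 in place of 1, and from 5 to 9 day 1 in place of 3. The block ended the genotype differences of c3a.1 from 2 to 5 day (edgeR adjusted p = 0.0567) and of c3a.1 and c9 from 5 to 9 day (0.0881 and 0.0685). For the wild-type steps the block compared fitted levels of replicate 1 at each stage, not group means. Its values there answer a different question from the main calls. From 2 to 5 day it called 3 in place of 6. There c3a.1, c9 and c5 did not pass (0.46, 0.48 and 0.12 on the log2 scale, edgeR adjusted p = 0.297, 0.217 and 0.777). The 5 to 9 day step of c9 (-0.56, 0.173) and the 25 hpf to 2 day step of c6 (-0.25, 0.531) did not pass either. Over all genes it called 1317 at 1 somite, 790 at 2 day and 1636 at 5 day in place of 2285, 1388 and 3014.

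With 1 library left out, members called ranged from 0 to 1 at 1 somite, 5 to 6 at 25 hpf, 2 to 3 at 2 day, 5 to 8 at 5 day, 2 to 2 at 9 day and 0 to 2 at 14 day. They ranged from 1 to 4 for the averaged effect and 6 to 8 for the change with stage. In the wild-type steps they ranged from 10 to 10, 7 to 8, 5 to 8, 3 to 4 and 2 to 4, and in the genotype differences of those steps from 0 to 0, 1 to 5, 0 to 2, 1 to 3 and 1 to 2. Other complement genes called ranged from 2 to 5, 8 to 12, 1 to 5, 7 to 13, 0 to 0 and 2 to 5 over the 6 stages. Low counts limit what 1 somite can show, where 6 members were too low to test with library totals of 8418880 to 11819378 counts against 5940058 to 8574155 at 2 day, where all 10 were tested, and cfhl1 at 25 hpf.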
